A study of Mus musculus with 576 samples.

Results

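The heat shock proteins are chaperones that bind unfolded or partly folded proteins, and Hsf1 is the transcription factor best known for raising their genes under heat and other stress that damages proteins. This account covers 10 of the 46078 genes counted, chosen by name and matched by mouse Ensembl identifier: the HSP70 genes Hspa1a, Hspa1b, Hspa8 and Hspa5, the HSP90 genes Hsp90aa1 and Hsp90ab1, the HSP110 gene Hsph1, the HSP40 gene Dnajb1, the mitochondrial cochaperonin gene Hspe1, and Hsf1. Their levels were compared over 6 groups of single mouse blood stem cells, sorted from femur and tibia marrow as CD150+ CD48- cKit+ Sca1+ cells, after red cell lysis. The groups were LPS p27 high, LPS p27 low, LPS p27 negative, control p27 high, control p27 low and control p27 negative, with 96 cells each. LPS is bacterial lipopolysaccharide, the control groups carry the treatment label Ctrl, and p27 is the cell cycle inhibitor made by Cdkn1b. Strain, age and number of the mice, LPS dose and time, and the way the p27 marker was read are not given in these sources. No animal or batch is named, so a group counts as 1 sample and group differences were not tested.

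In the cytosol, HSP70 proteins bind exposed hydrophobic stretches of a client protein. J-domain proteins such as Dnajb1 deliver clients and start the ATP cycle, and nucleotide exchange factors such as Hsph1 release them. HSP90 takes over clients that are nearly folded, including many kinases and steroid receptors. Hspa5, also called BiP or GRP78, does the HSP70 work inside the endoplasmic reticulum (ER) and is a classic target of the unfolded protein response. Hspe1 caps the HSP60 ring made from Hspd1 in mitochondria. Blood stem cells are known for a low rate of protein synthesis and for being sensitive to misfolded proteins.

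After cells with under 50000 gene reads were left out, 547 of 576 cells remained: 93 LPS p27 high, 90 LPS p27 low, 92 LPS p27 negative, 84 control p27 high, 93 control p27 low and 95 control p27 negative cells. A kept cell had between 52163 and 1942773 gene reads, and a group had between 21714440 and 49018367. The 8 stem cell markers checked, Procr and Kit among them, summed to between 1236 and 2816 CPM, the count per 1000000 gene reads of the group, with none at 0 reads in any group. Of the markers of other lineages, B cell markers summed to 31.1 to 80.3 CPM and T and NK cell markers to 55.9 to 172 CPM, and of each of these lists 1 of 6 genes reached 10 CPM. Neutrophil and monocyte markers summed to 353 to 861 CPM, megakaryocyte markers to 253 to 1395 CPM, above the stem cell sum of 1236 CPM in control p27 negative cells, and erythroid markers to 69.02 to 662 CPM. In 1 control p27 negative cell 97.9% of gene reads came from mitochondrially encoded genes, and leaving out cells with over 10% of such reads left each count of genes past 2-fold given below at 0. Gene reads per spike-in read were 25.6, 23.9 and 44.8 in LPS p27 high, low and negative cells, against 9.37, 9.84 and 12.7 in the control cells of these classes. CPM below therefore compares shares of each group's gene reads, not RNA molecules per cell, and every direction below is on the CPM scale unless a value is given per spike-in read.

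Levels of the 10 genes spanned a wide range, and the constitutive chaperones stood at the top. Per kilobase of annotated exon, the median over the 6 groups was 1084 CPM per kb for Hsp90ab1, 229 for Hspa5, 112 for Hspa8, 75.4 for Hsp90aa1, 69.3 for Dnajb1 and 62.8 for Hspe1. Hsf1 at 12.9 and Hsph1 at 12.6 CPM per kb lay lower and close together. The inducible HSP70 genes had almost no counted reads, with medians of 0.0351 CPM per kb for Hspa1a and 0.0229 for Hspa1b. Ranks 1 to 3 were held by Hsp90ab1, Hspa5 and Hspa8 in every group. Hsp90aa1, Dnajb1 and Hspe1 changed places between groups at ranks 4 to 6, as did Hsf1 and Hsph1 at ranks 7 and 8. Hsp90ab1 lay above 99.8% to 99.9% of the protein-coding genes detected in a group. Between the groups, the highest level was 3.07 times the lowest for Hsph1, 2.46 times for Dnajb1, 1.95 times for Hspa5 and 1.68 times for Hsf1. For Hsp90aa1, Hsp90ab1, Hspa8 and Hspe1 this ratio was between 1.26 and 1.39.

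**Figure D1:**
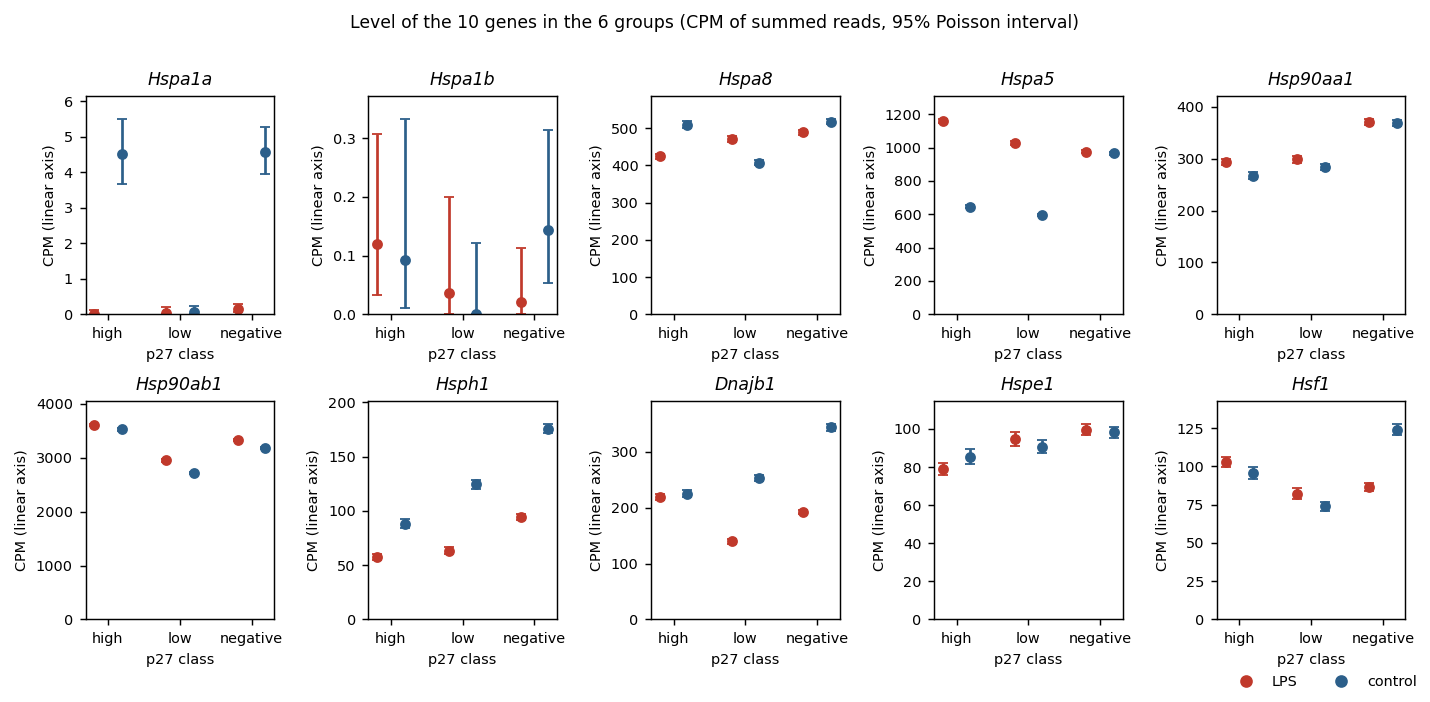
Level of each gene in the 6 groups, as CPM of reads summed over the kept cells on linear axes from 0, with 95% Poisson intervals for counting error only and LPS left of control within each p27 class. Hspa5 was higher in LPS than in control cells of the p27 high and low classes, while Hsph1 was lower in LPS cells of all 3 classes and Hspa1a had reads mainly in control p27 high and negative cells.

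How LPS and control cells differed in the same p27 class was the first comparison. In the higher group, 8 of the 10 genes reached 10 CPM, and Hspa1a and Hspa1b did not. None of these 8 was at least 2-fold apart on the scale of log2(CPM + 1) in p27 high cells, where 20.4% of the 10343 genes at that level were. The same count was 0 of 8 in p27 low cells, against 24.9% of 10141 genes, and 0 of 8 in p27 negative cells, against 15.8% of 9948 genes. The median log2 fold of the 8 genes was 0.00, 0.10 and -0.04 in p27 high, low and negative cells, beside medians over all genes of -0.11, -0.18 and -0.13. Hspa5 lay at the upper end, and Hsph1 and Dnajb1 lay at the lower end. Per spike-in read every one of the 8 genes was higher in LPS cells, by 0.31 to 2.29 on the log2 scale, and so was the median of all genes, by 1.35, 1.13 and 1.67 in p27 high, low and negative cells.

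**Figure D2:**
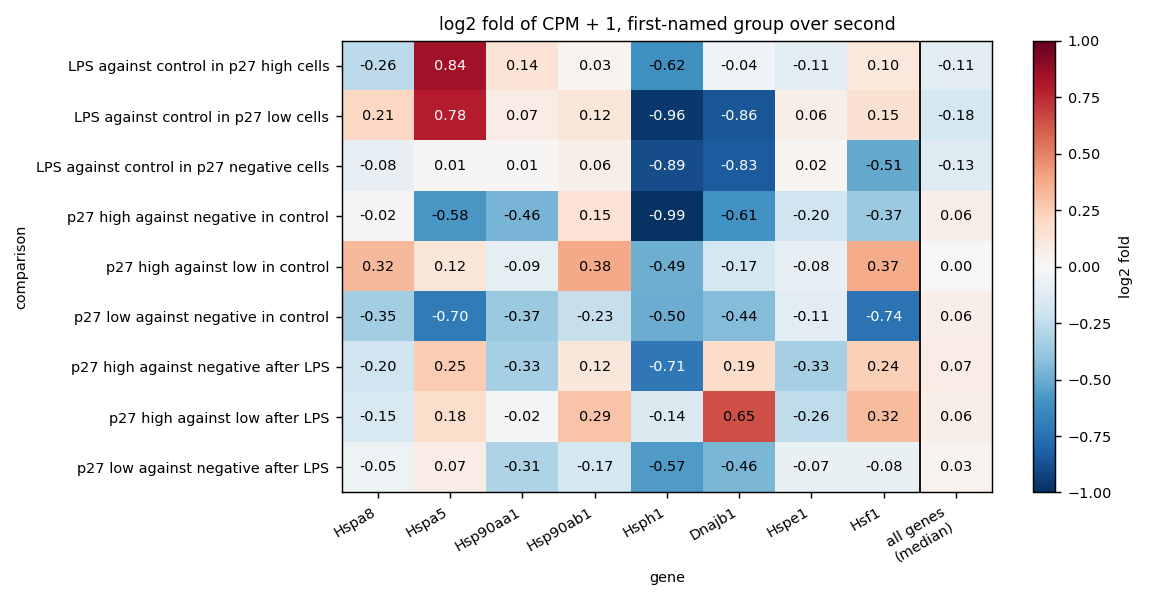
Heat map of the log2 fold of CPM + 1 for the 8 genes with at least 10 CPM (columns) in 9 comparisons (rows), first-named group over second, with the median of all genes in the last column. Hspa5 had 0.84 and 0.78 in the LPS comparisons of p27 high and low cells and 0.01 in p27 negative cells, while Hsph1 was at or below -0.14 in all 9 comparisons, all on the CPM scale.

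Hspa5, the ER chaperone, had the highest LPS fold of the 8 genes in the p27 high and low classes. Its level was 1159.6 CPM in LPS p27 high cells (95% Poisson interval 1148 to 1171), against 646 CPM in the control cells of that class (635 to 657). In p27 low cells it was 1026 CPM after LPS, against 595 CPM in control, and in p27 negative cells it was 974 CPM after LPS, against 967 CPM in control. Control p27 high and low cells thus had the lowest levels, and the other groups lay between 967 and 1159.6 CPM. The ratio of LPS to control was 1.79 in the high class (95% counting interval 1.76 to 1.83), 1.72 in the low class (1.69 to 1.76) and 1.01 in the negative class (0.995 to 1.02). These intervals cover the counting of reads only, since reads amplified without molecular identifiers are not independent molecules. Of all genes with at least 10 CPM, 90.3% had a lower fold than Hspa5 in p27 high cells, 89.3% in p27 low cells and 60.7% in p27 negative cells. Over 14 other settings, spike-in scaling apart, the log2 fold stayed between 0.78 and 0.98 in p27 high cells and between 0.75 and 0.94 in p27 low cells. In p27 negative cells it ranged from -0.31 with only the cells numbered 33 to 96 to 0.17 with the mean of per-cell CPM.

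Cell by cell, Hspa5 was spread over a wide range in every group and the groups overlapped. The median cell had 868 CPM in LPS p27 high cells, against 456 CPM in control p27 high cells. In p27 low cells the medians were 593 CPM after LPS and 373 CPM in control, and in p27 negative cells 644 CPM after LPS and 621 CPM in control. In the high and low classes the lower quartiles were further apart in ratio than the medians, at 468 CPM in LPS p27 high cells against 122 CPM in control p27 high cells, and at 265 CPM in LPS p27 low cells against 119 CPM in control p27 low cells. With each cell thinned to 50000 reads, at least 5 Hspa5 reads were found in 89.2% of LPS p27 high cells (95% Clopper-Pearson interval 81.1 to 94.7), against 77.4% of control p27 high cells (66.95 to 85.8). The shares were 87.8% of LPS p27 low cells against 76.3% of control p27 low cells, and 90.2% of LPS p27 negative cells against 91.6% of control p27 negative cells. With at least 1 read they were closer, at 94.6%, 98.9% and 96.7% of LPS p27 high, low and negative cells, against 91.7%, 93.5% and 97.9% in control. At full depth, cells with no Hspa5 read numbered 2 in LPS p27 high and 0 in the other LPS classes, against 2, 1 and 0 in the control high, low and negative classes.

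Hspa5 lies on chromosome 2 at 34771970 to 34777547, on the plus strand of mm10 (GENCODE M21), and its RefSeq promoter is shown because it carries the ER stress element, the motif through which the unfolded protein response is known to act on this gene. The 250 bases before the annotated start (GRCm38.p6, chr2:34771840-34772089, plus strand) are printed with the match in capitals, that is CCAAT, 9 bases of any kind and CCACG.
Hspa5: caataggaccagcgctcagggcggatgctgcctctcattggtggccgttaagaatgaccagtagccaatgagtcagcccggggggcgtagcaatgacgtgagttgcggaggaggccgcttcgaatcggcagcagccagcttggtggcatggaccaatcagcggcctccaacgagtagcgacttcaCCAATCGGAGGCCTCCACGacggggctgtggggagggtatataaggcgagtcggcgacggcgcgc
The match begins at position -65 relative to the start. Searched on both strands, this arrangement occurs in 39 of 32851 promoter windows of 300 bases (0.119%). A match describes letters only, and no binding was measured here.

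**Figure D3:**
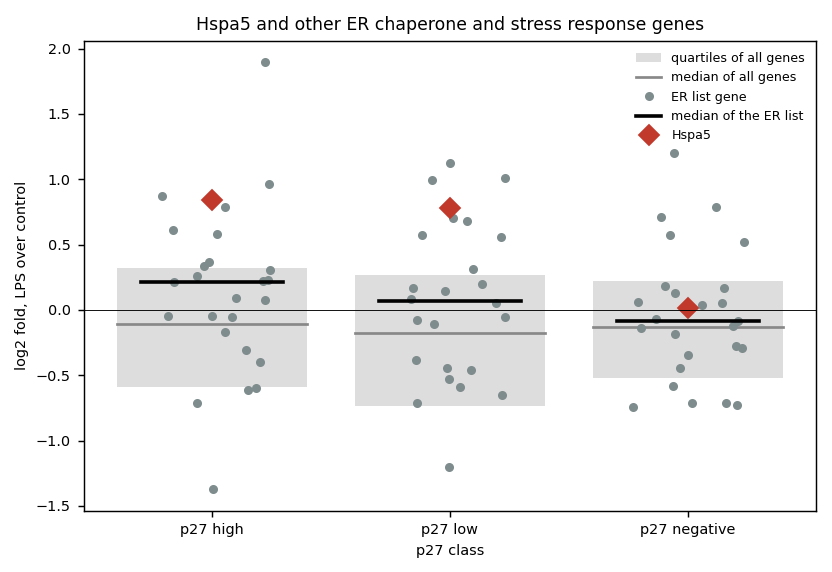
Log2 fold of CPM + 1, LPS over control, in the 3 p27 classes for Hspa5 (diamond) and each gene of the ER list with at least 10 CPM (points), with the median of the list (black line), the median of all genes (grey line) and the quartiles of all genes (grey band). Hspa5 lay above the upper quartile of all genes in p27 high and low cells and within the band in p27 negative cells, and the list scattered on both sides of 0.

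Other ER chaperone and unfolded protein response genes scattered on both sides of 0. Of 25 listed genes, 25 had at least 10 CPM in the p27 high comparison, where 1 was at least 2-fold higher and 1 at least 2-fold lower in LPS cells, beside 7.64% and 12.7% of all genes. The list's median log2 fold was 0.21. In p27 low cells 2 of 24 were higher and 1 was lower, beside 8.07% and 16.8%, with a median of 0.07. In p27 negative cells 1 of 25 was higher and 0 were lower, beside 5.83% and 9.94%, with a median of -0.08. The medians over all genes were -0.11, -0.18 and -0.13. Atf4, a transcription factor of the integrated stress response, had 342 CPM in LPS p27 high cells against 175 CPM in control p27 high cells, 340.1 CPM in LPS p27 low cells against 155 CPM in control p27 low cells, and 429 CPM in LPS p27 negative cells against 248 CPM in control p27 negative cells. Edem1, which targets misfolded glycoproteins for disposal, had 57.5 CPM in LPS p27 high cells against 14.7 CPM in control p27 high cells, and 1 cell supplied 22.5% of the LPS reads. In p27 low and negative cells the log2 folds of Edem1 were -0.06 and 0.17. Ern1, the ER stress sensor IRE1, went in opposite directions, with log2 folds of -1.37 in p27 high cells and 1.01 in p27 low cells. In p27 negative cells the log2 fold of Ern1 was -0.14. The highest cell supplied 35.8% of the Ern1 reads in LPS p27 high cells and 15.6% in control p27 high cells. In the p27 low class the highest cell supplied 23.2% after LPS and 37.02% in control. Dnajb9, a J-domain partner of Hspa5, had 49.97 CPM in LPS p27 low cells against 116 CPM in control p27 low cells. Its log2 fold was 0.34 in p27 high cells and -0.35 in p27 negative cells. Syvn1, a ubiquitin ligase of ER disposal, had log2 folds of 0.79, 0.99 and 1.20 in p27 high, low and negative cells. Eif2ak3, the sensor PERK, had -0.71 in p27 high cells and -0.74 in p27 negative cells. Hsp90b1, the ER HSP90, chosen after its values were seen, had log2 folds of -0.05, -0.59 and -0.19 in p27 high, low and negative cells.

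Within groups, the genes whose levels followed Hspa5 most closely from cell to cell were also of the ER. Over 7676 genes with at least 10 CPM in all groups, the mean of the 6 within-group Spearman correlations was highest for Manf at 0.36, then Sdf2l1 at 0.31, Pdia6 at 0.29, Calr at 0.29 and Lrrc59 at 0.26. Manf is a secreted protein of the ER, Sdf2l1 a partner of Hspa5 complexes, Pdia6 a disulfide isomerase and Calr the lectin chaperone calreticulin. Cells of a group share depth differences and their source, so these values are descriptions. Between LPS and control, Manf had log2 folds of 0.58, 0.56 and 0.05 in p27 high, low and negative cells, whereas Sdf2l1 had -0.40, -0.45 and -0.58.

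Hsph1, the HSP110 exchange factor, was lower in LPS cells of each class on the CPM scale. Its level was 57.2 CPM in LPS p27 high cells (54.7 to 59.9), against 88.2 CPM in the control cells of that class (84.3 to 92.3). In p27 low cells it was 63.4 CPM after LPS, against 124 CPM in control, and in p27 negative cells 94.5 CPM after LPS, against 176 CPM in control. All 3 LPS values lay below those of control low and negative cells, but LPS p27 negative cells lay above control p27 high cells. The ratio of LPS to control was 0.649 in the high class (0.609 to 0.692), 0.51 in the low class (0.482 to 0.54) and 0.538 in the negative class (0.518 to 0.558). Between 12.2% and 24.2% of all genes had a lower fold than Hsph1 in these comparisons. Over the 14 other settings the log2 fold ranged from -0.78 to -0.48 in p27 high cells, from -1.05 to -0.68 in p27 low cells and from -1.14 to -0.46 in p27 negative cells, and per spike-in read it was 0.81, 0.31 and 0.92.

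Hsph1 was carried by a minority of cells at high levels. The median cell had 0 CPM in LPS p27 high cells against 7.21 CPM in control p27 high cells, 2.34 CPM in LPS p27 low cells against 6.09 CPM in control p27 low cells, and 12.3 CPM in LPS p27 negative cells against 10.6 CPM in control p27 negative cells. At 50000 reads a cell, 31.2% of LPS p27 high cells had an Hsph1 read against 42.9% of control p27 high cells, and 33.3% of LPS p27 low cells against 46.2% of control p27 low cells. In the p27 negative class the shares were 53.3% after LPS and 48.4% in control, the other way round from the summed level. With at least 5 reads they were 25% after LPS and 34.7% in control, so the direction depended on the cut. The intervals of the shares with at least 1 read overlapped in each class, for example 21.98 to 41.6% in LPS p27 high cells and 32.1 to 54.1% in control p27 high cells. The highest cell held 20.6% of the Hsph1 reads of control p27 negative cells, and with the mean of per-cell CPM the levels there were 89.1 in LPS and 123 in control cells. At full depth 50, 43 and 26 cells had no read in LPS p27 high, low and negative cells, against 27, 29 and 28 in the control classes.

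Dnajb1, the J-domain partner of cytosolic HSP70, was lower in LPS cells of the low and negative classes and near equal in the high class on the CPM scale. Its level was 219 CPM in LPS p27 high cells (214 to 224), against 225 CPM in the control cells of that class (219 to 231). In p27 low cells it was 139.7 CPM after LPS, against 254 CPM in control, and in p27 negative cells 192 CPM after LPS, against 344 CPM in control. The lowest group was thus LPS p27 low and the highest control p27 negative. The ratio of LPS to control was 0.974 in the high class (0.939 to 1.01), 0.551 in the low class (0.53 to 0.572) and 0.56 in the negative class (0.545 to 0.575). Over the 14 other settings the log2 fold stayed between -0.93 and -0.70 in p27 low cells and between -0.89 and -0.61 in p27 negative cells, and per spike-in read it was 0.42 and 0.98. In the p27 high class, where it was -0.04, it turned to 0.09 with TMM scaling factors.

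For Dnajb1 the share of cells with a read was lower after LPS in the low and negative classes, as was the level. Between classes the share did not follow the level, since LPS p27 negative cells had a lower CPM than LPS p27 high cells but a larger share. At 50000 reads a cell, a read was found in 62.2% of LPS p27 low cells (51.4 to 72.2), against 81.7% of control p27 low cells (72.4 to 88.98). The shares were 66.7% of LPS p27 high cells against 67.9% of control p27 high cells, and 84.8% of LPS p27 negative cells against 91.6% of control p27 negative cells. The median cell had 63.5 CPM in LPS p27 low cells against 171 CPM in control p27 low cells, and 158 CPM in LPS p27 negative cells against 306 CPM in control p27 negative cells. In the p27 high class the median was 137 CPM after LPS and 98.1 CPM in control, although the summed levels were close. At full depth 18, 24 and 8 cells had no Dnajb1 read in LPS p27 high, low and negative cells, against 7, 10 and 4 in the control classes.

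**Figure D4:**
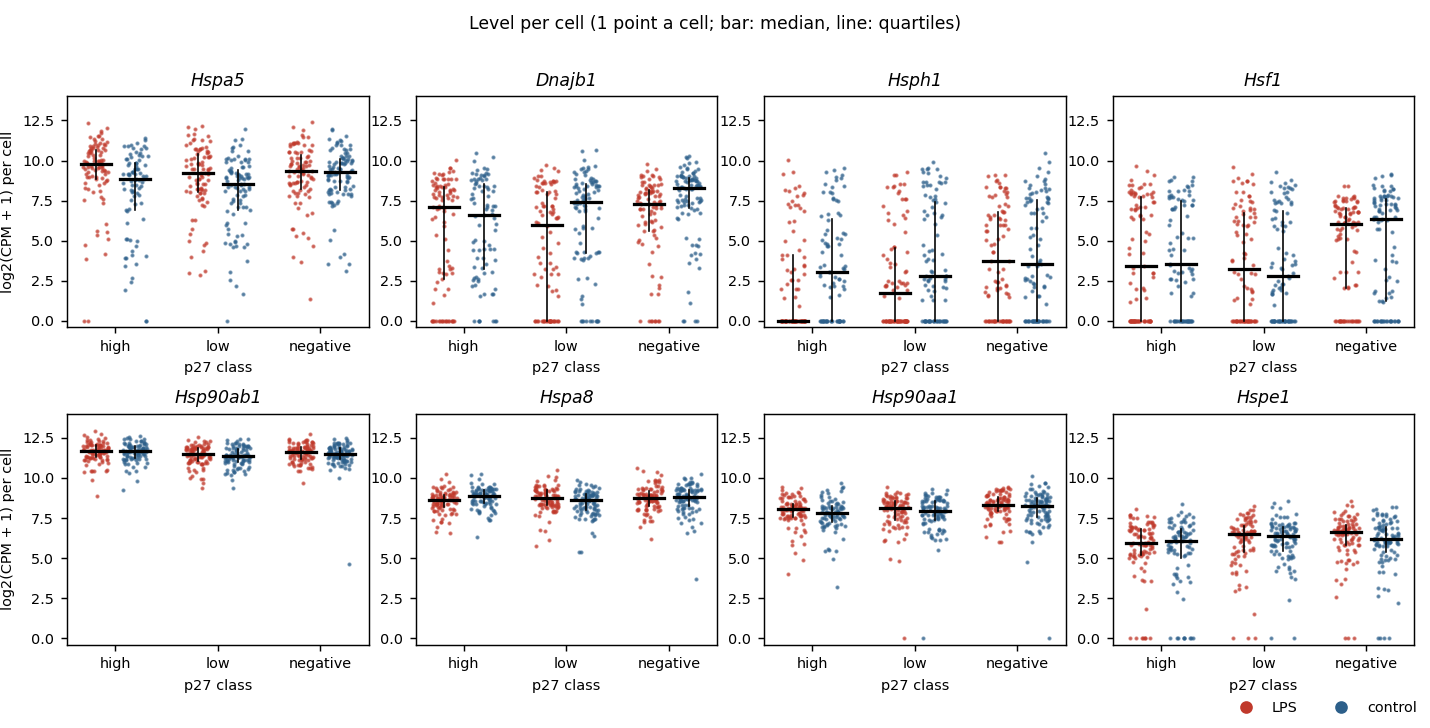
Level per cell as log2(CPM + 1) for 8 genes (1 point a kept cell), with the median (bar) and quartiles (line), LPS left of control within each p27 class. Hsp90ab1, Hspa8 and Hsp90aa1 formed single bands, and Hspe1 formed a band with some cells at 0, such as 9 of 84 control p27 high cells. Hsph1, Hsf1 and Dnajb1 spread from 0 to high levels, with 50 of 93 LPS p27 high cells at 0 for Hsph1.

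Hsph1 and Dnajb1 are both known HSF1 targets under heat, and their RefSeq promoters are shown to compare their heat shock elements, repeats of the unit GAA in alternating orientation. The 250 bases before the first annotated start (GRCm38.p6, chr5:149636337-149636586, minus strand for Hsph1 and chr8:83607925-83608174, plus strand for Dnajb1) are given with matches to GAANNTTC or TTCNNGAA in capitals, followed by a short stretch just after the Hsph1 start (chr5:149636287-149636308, minus strand) that holds a match to the 3-unit form (GAA, TTC and GAA with 2 bases of any kind between units), which begins at position 37.
Hsph1: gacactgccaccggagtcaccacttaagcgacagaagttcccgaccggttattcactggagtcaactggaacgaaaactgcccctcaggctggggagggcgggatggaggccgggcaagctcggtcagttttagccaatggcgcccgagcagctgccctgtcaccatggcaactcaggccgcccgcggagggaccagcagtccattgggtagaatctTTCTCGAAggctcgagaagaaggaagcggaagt
Hsph1 after the start: gctgcagaTTCTGGAAAGTTCt
Dnajb1: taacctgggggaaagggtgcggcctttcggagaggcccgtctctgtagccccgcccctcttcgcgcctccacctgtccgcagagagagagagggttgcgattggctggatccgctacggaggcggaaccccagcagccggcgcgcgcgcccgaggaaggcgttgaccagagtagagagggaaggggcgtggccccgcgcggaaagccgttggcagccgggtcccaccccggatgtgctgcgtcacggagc
Hsph1 had a 2-unit match at position -33, and neither of the windows for Dnajb1 held a match to these letters. A 2-unit match, searched on both strands with overlaps to the 3-unit form counted, occurs in 15.1% of the 32851 windows of 300 bases, and a 3-unit match in 0.603%. Windows were found for 6 of the 10 genes and number 8 in all.

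Hspa8, the constitutive HSP70 that also strips clathrin from vesicles, stayed within a narrow range. It had 425 CPM in LPS p27 high cells against 509.5 CPM in control p27 high cells, 471 CPM in LPS p27 low cells against 407 CPM in control p27 low cells, and 489 CPM in LPS p27 negative cells against 518 CPM in control p27 negative cells. The LPS group was the lower one in the p27 high and negative classes and the higher one in the low class. The log2 folds were -0.26, 0.21 and -0.08, and the last turned to 0.04 with TMM factors. A read was found in every kept cell. Only 60.6% of the 50-base stretches of Hspa8 transcripts occur in no other annotated gene, and the number of reads lost to copies was not tested.

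Hspa1a and Hspa1b, the stress-inducible HSP70 genes, were close to undetected. Over all kept cells Hspa1a had 298 reads and Hspa1b had 14. Hspa1a had 0, 1 and 7 reads in LPS p27 high, low and negative cells, against 98, 2 and 190 reads in the control classes in this order. In CPM this was 0, 0.036 and 0.143 after LPS, against 4.51, 0.0657 and 4.57 in control. A count of 0 among the reads of LPS p27 high cells leaves a level of up to 0.111 CPM within the 95% Poisson interval. The control reads came from few cells, 5 of 84 control p27 high and 4 of 95 control p27 negative cells, and the highest cell held 40.8% and 62.6% of the reads of these groups. In LPS cells, reads came from 0 of 93, 1 of 90 and 1 of 92 cells. Because a handful of cells set these values and no group reached 10 CPM, no fold is given. Hspa1b had 4, 1 and 1 reads in LPS p27 high, low and negative cells, against 2, 0 and 6 in the control classes.

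Of the 50-base stretches of their transcripts, 33.7% for Hspa1a and 37.7% for Hspa1b occur in no other annotated gene, and how far this lowered their counts was not tested. Hspa1a also overlaps the protein-coding entry Gm20481 on the opposite strand, which had 0 reads over all groups. Whether counting used strand is not given in the sources used here, and reads lost to this overlap were not tested. Hspa1a and Hspa1b lie next to each other on chromosome 17, at 34969190 to 34972156 and at 34956436 to 34959238, both on the minus strand. Their promoters are printed to show how alike the copies are (250 bases before the start, GRCm38.p6, chr17:34972157-34972406 for Hspa1a and chr17:34959239-34959488 for Hspa1b, minus strand), with the single 2-unit heat shock element match in capitals.
Hspa1a: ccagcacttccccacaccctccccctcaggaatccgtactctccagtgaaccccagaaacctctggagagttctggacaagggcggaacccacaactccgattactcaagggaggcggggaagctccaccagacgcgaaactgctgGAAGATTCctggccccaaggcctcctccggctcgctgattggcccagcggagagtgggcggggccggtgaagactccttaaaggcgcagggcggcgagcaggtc
Hspa1b: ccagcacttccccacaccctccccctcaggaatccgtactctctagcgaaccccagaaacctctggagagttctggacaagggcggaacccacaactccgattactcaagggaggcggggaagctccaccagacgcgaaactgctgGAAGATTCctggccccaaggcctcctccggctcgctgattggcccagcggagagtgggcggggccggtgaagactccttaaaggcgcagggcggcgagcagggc
The match begins at position -104 in both. Over 300 bases, which include 50 after the start, the windows were 98.7% identical and differed at 4 positions, C44T, T47C, T249G and C276T, counted from 1 at the 5′ end of the window with the Hspa1a base first.

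Hsp90ab1, the constitutive cytosolic HSP90, was the most abundant of the 10 genes. Its level was 3598 CPM in LPS p27 high cells against 3521 CPM in control p27 high cells, 2947 CPM in LPS p27 low cells against 2706 CPM in control p27 low cells, and 3321 CPM in LPS p27 negative cells against 3183 CPM in control p27 negative cells. Log2 folds of LPS over control were 0.03, 0.12 and 0.06, and the first was slightly negative with only cells of at least 200000 gene reads. The p27 low class had the lowest level under both treatments. Every kept cell had an Hsp90ab1 read at 50000 reads, and 96.6% of its 50-base stretches occur in no other gene.

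Hsp90aa1, the inducible HSP90, was highest in p27 negative cells under both treatments. It had 294 CPM in LPS p27 high cells against 267 CPM in control p27 high cells, and 299 CPM in LPS p27 low cells against 284 CPM in control p27 low cells. In p27 negative cells it had 371 CPM after LPS and 368 CPM in control. The log2 folds of LPS over control were 0.14, 0.07 and 0.01, the last turning to -0.02 with only cells of at least 200000 gene reads. Only 52.5% of its 50-base stretches occur in no other gene, and 3 processed pseudogenes that share such stretches held 154, 160 and 200 CPM in LPS p27 high, low and negative cells, against 138, 152 and 197 CPM in the control classes.

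Hspe1, the HSP10 cap of the mitochondrial HSP60 ring, had the smallest ratio of highest to lowest group, 1.26, next to 1.27 for Hspa8. It had 79.1 CPM in LPS p27 high cells against 85.4 CPM in control p27 high cells, 94.6 CPM in LPS p27 low cells against 90.6 CPM in control p27 low cells, and 99.6 CPM in LPS p27 negative cells against 98.1 CPM in control p27 negative cells. The log2 folds were -0.11, 0.06 and 0.02, small beside the quartiles of all genes, the first turned to 0.02 with TMM factors, and the third to -0.04 with only cells of at least 200000 gene reads. Its promoter is shown by a stretch of 30 bases (GRCm38.p6, chr1:55088053-55088082, plus strand) that holds overlapping 3-unit heat shock element matches, in capitals, at positions -89 and -84.
Hspe1: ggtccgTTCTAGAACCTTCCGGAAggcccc
Hspe1 and its partner Hspd1 lie head to head on opposite strands, and whether counting used strand is not given in the sources used here. None of 12 mitochondrial chaperone and protease genes was at least 2-fold apart between LPS and control in any class, beside 20.4%, 24.9% and 15.8% of all genes in those classes, taken from p27 high to p27 negative. Their median log2 folds were 0.00, -0.04 and -0.05. The genes of this list furthest apart were Grpel2 in p27 high cells at -0.87, Clpb in p27 low cells at -0.93 and Hscb in p27 negative cells at -0.75.

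Per length, Hsf1 itself lay below most of the chaperone genes, but above 57.7% to 71.3% of the protein-coding genes detected in a group. Reads of Hsf1 were found in part of the cells. It had 103 CPM in LPS p27 high cells (99.5 to 106) against 95.7 CPM in control p27 high cells (91.7 to 99.95), and 82.3 CPM in LPS p27 low cells against 73.96 CPM in control p27 low cells. In p27 negative cells it had 86.8 CPM after LPS, against 124 CPM in control. Control p27 negative cells were thus the highest group and control p27 low cells the lowest. The ratio of LPS to control was 1.07 in the high class (1.02 to 1.14), 1.11 in the low class (1.05 to 1.18) and 0.699 in the negative class (0.671 to 0.729). At 50000 reads, 49.5%, 46.7% and 65.2% of LPS p27 high, low and negative cells had an Hsf1 read, against 53.6%, 41.9% and 64.2% of the control cells. In p27 negative cells the share was thus near equal at this cut, but with at least 5 reads it was 31.5% after LPS and 44.2% in control. The median p27 negative cell had 63.9 CPM after LPS and 80.3 CPM in control. At full depth 34, 31 and 22 cells had no read in LPS p27 high, low and negative cells, against 25, 32 and 22 in the control classes. Hsf1 protein is controlled mainly after translation, so its RNA level does not report its activity.

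**Figure D5:**
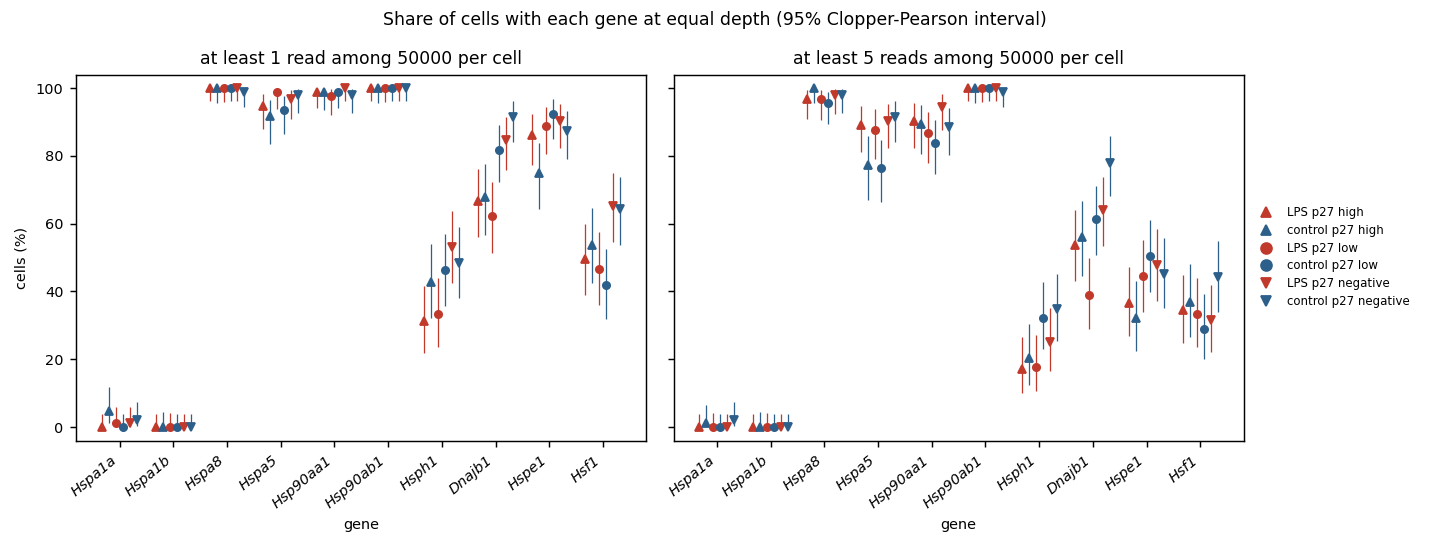
Percent of kept cells with at least 1 read (left) and at least 5 reads (right) of each gene after every cell was thinned to 50000 reads, with 95% Clopper-Pearson intervals, LPS left of control within each p27 class. Dnajb1 was found in 62.2% of LPS p27 low cells against 81.7% of control p27 low cells, while Hspa8 and Hsp90ab1 were found in nearly every cell and Hspa1a in 4.76% at most.

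Genes that regulate or bind heat shock factors were listed with Hsf1. Of 12 such genes, 7 had at least 10 CPM in the p27 high and low comparisons and 8 in p27 negative cells. Daxx, a nuclear histone chaperone reported to help HSF1 in human cells, was at least 2-fold higher in LPS cells of each class. It had 146 CPM in LPS p27 high cells against 34.8 CPM in control p27 high cells, 218 CPM in LPS p27 low cells against 50.8 CPM in control p27 low cells, and 144 CPM in LPS p27 negative cells against 55.7 CPM in control p27 negative cells. Hdac6, a cytosolic deacetylase of HSP90, had log2 folds of 1.34 in p27 high cells and -0.92 in p27 low cells. Sirt1, a deacetylase of HSF1, had 13.1 CPM in LPS p27 negative cells against 38.2 CPM in control p27 negative cells. The list's median log2 folds were 0.11, -0.52 and -0.12.

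Among 25 further cytosolic chaperone and HSF1 target genes, 17 had at least 10 CPM in the p27 high and low comparisons and 16 in the p27 negative comparison. In LPS p27 high cells 1 was at least 2-fold higher and 2 were lower, in p27 low cells 1 and 3, and in p27 negative cells 0 and 1, beside the shares of all genes given above. Ier5, an immediate early gene known to act on HSF1, had 29.01 CPM in LPS p27 high cells against 9.81 CPM in control p27 high cells, and 39.96 CPM in LPS p27 low cells against 10.8 CPM in control p27 low cells. The small heat shock protein gene Hspb6 had 3.42 CPM in LPS p27 high cells against 10.3 CPM in control p27 high cells, and 2.09 CPM in LPS p27 low cells against 12.9 CPM in control p27 low cells. Hspb8, another small heat shock protein gene, had 1 read in LPS p27 low cells against 22.3 CPM in control p27 low cells, of which 1 cell held 26.2%. In p27 negative cells the genes furthest apart were the J-domain genes Dnajb2, Dnajb4 and Dnaja1, at log2 folds of -1.01, -0.83 and -0.73, the same sign as Dnajb1.

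All 23 HSP70 and HSP90 cochaperone genes had at least 10 CPM, and 1, 0 and 1 of them were at least 2-fold higher and 0 lower in LPS p27 high, low and negative cells, where 7.64%, 8.07% and 5.83% of all genes were higher and 12.7%, 16.8% and 9.94% were lower. Their median log2 folds were -0.04, -0.19 and -0.07. Unc45a, a myosin and HSP90 cochaperone, was that gene both times, with log2 folds of 1.85 in the high class and 1.30 in the negative class. Stip1, the adaptor between HSP70 and HSP90, had 403 CPM in LPS p27 low cells against 213 CPM in control p27 low cells. Of 14 genes of the TRiC chaperonin and prefoldin, which fold actin and tubulin, 1 was at least 2-fold higher in LPS p27 high cells, namely Pfdn2 at 1.22, and 0 in the other classes, with 0 lower in each, beside the same shares of all genes. The median log2 folds of this list were 0.22, 0.17 and 0.06, beside -0.11, -0.18 and -0.13 over all genes.

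Differences between the p27 classes were described in the same way, within each treatment. These comparisons reuse the same 6 groups and so are not independent of each other. None of the 8 genes was at least 2-fold apart in any of them. The shares of all genes past that fold in control cells were 21.5% for p27 high against negative, 17.4% for high against low and 18.6% for low against negative. In LPS cells they were 19.2%, 17.9% and 16.4%.

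In control marrow, p27 negative cells had the highest level of most of the 8 genes. Between p27 high and negative cells 7 of the 8 log2 folds were below 0, with a median of -0.42 beside 0.06 over all genes, although Hspa8 at -0.02 turned to 0.08 with only the cells numbered 33 to 96. Hsph1 was furthest apart, at -0.99 with 88.2 CPM in control p27 high cells against 176 CPM in control p27 negative cells, followed by Dnajb1 at -0.61, Hspa5 at -0.58, Hsp90aa1 at -0.46 and Hsf1 at -0.37. Hsph1 moved to -1.08 with TMM factors and to -0.44 with the mean of per-cell CPM. Hsp90ab1 was at 0.15, and at -0.29 per spike-in read, where all 8 genes were below 0. Between p27 low and negative cells all 8 log2 folds were below 0, with a median of -0.40 beside 0.06, although Hsph1 at -0.50 and Hspe1 at -0.11 turned to 0.04 and 0.02 with the mean of per-cell CPM. Hsf1 was furthest apart here at -0.74, followed by Hspa5 at -0.70. Between p27 high and low cells the 8 genes divided evenly in sign, from -0.49 for Hsph1 to 0.38 for Hsp90ab1, and Hspe1 at -0.08 turned to 0.05 with only the cells numbered 33 to 96.

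After LPS, Hspa5 and Dnajb1 had their highest CPM in p27 high cells, but per spike-in read both were lower there than in p27 negative cells, at log2 folds of -0.55 and -0.62. On the CPM scale Hspa5 had a log2 fold of 0.25 for LPS p27 high against negative cells and 0.07 for LPS p27 low against negative cells, and the second was -0.83 per spike-in read and -0.03 with the mean of per-cell CPM. Dnajb1 had 0.19 for LPS p27 high against negative, 0.65 for high against low and -0.46 for low against negative. The first was 0.03 with the mean of per-cell CPM. The median cell had 137 CPM of Dnajb1 in LPS p27 high cells, against 158 CPM in LPS p27 negative cells. Hsf1 at 0.24 and Hsp90ab1 at 0.12 for LPS p27 high against negative cells turned to -0.56 and -0.69 per spike-in read, and Hsp90aa1 at -0.02 for high against low turned to 0.08. Hsph1 had its lowest CPM after LPS in p27 high cells, at -0.71 against LPS p27 negative cells, but this was -0.24 with only the cells numbered 33 to 96. Medians over the 8 genes were -0.04, 0.08 and -0.12 for high against negative, high against low and low against negative, beside 0.07, 0.06 and 0.03 over all genes. Per spike-in read the all-gene medians were -0.74, 0.16 and -0.87 in these comparisons.

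Mitotic genes and immediate early genes differed along the same groupings. The summed level of 18 mitotic genes was 224, 191 and 4807 CPM in LPS p27 high, low and negative cells, against 195, 374 and 5409 CPM in the control classes. Mki67, the gene of the proliferation marker Ki-67, had 15.3, 36.3 and 656 CPM in LPS p27 high, low and negative cells, against 11.6, 64.2 and 804 CPM in control. The sum of 22 immediate early genes, which are also known to respond to tissue dissociation, was 6894, 5700.4 and 3892 CPM in LPS p27 high, low and negative cells, against 5053, 3721 and 2418 CPM in control. Fos had 1044, 697 and 479 CPM in the LPS classes against 1739, 769.7 and 538 CPM in control, and Jun had 386, 266 and 185 CPM in the LPS classes against 290.5, 183 and 133 CPM in control. Egr1 had 467, 156 and 111 CPM in the LPS classes against 83.5, 58.2 and 66.95 CPM in control. Of the immediate early genes with at least 10 CPM, 7 of 19, 5 of 18 and 6 of 18 were at least 2-fold higher in LPS p27 high, low and negative cells, beside 7.64%, 8.07% and 5.83% of all genes, and 1, 0 and 0 were at least 2-fold lower, beside 12.7%, 16.8% and 9.94%. Megakaryocyte and erythroid markers, summed, were lowest in p27 high cells under both treatments. The part of cycling, of the immediate early response and of lineage markers in the levels of the heat shock genes was not tested.

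Among the 10 genes themselves, levels went together from cell to cell most for the cytosolic and mitochondrial chaperones. The mean within-group Spearman correlation over the 6 groups was 0.43 for Hsp90aa1 with Hspe1, with 0.35 in the lowest group and 0.56 in the highest. It was 0.34 for Hspa8 with Hsp90aa1, 0.29 for Hsp90aa1 with Hsp90ab1 and 0.29 for Hspa8 with Hspe1. The same mean with sequencing depth was 0.19 for Hsp90aa1, 0.14 for Hsp90ab1, 0.11 for Hspa8 and 0.09 for Hspe1. The part of depth and of cells without a read in these correlations was not tested. Outside the family, Hspa8 was most like Pa2g4 at 0.35, then the genes Gm5297 at 0.34, Gm12346 at 0.32, Mif at 0.29 and Gm13461 at 0.28, of which Gm12346 is the pseudogene that shares most sequence with Hsp90aa1. The sum of Hspa1a and Hspa1b was most like Prepl, Fbxw8, Pcca, Gm5499 and Hat1, at 0.14 to 0.16, which in counts this sparse is no finding.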

How the data were processed

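Single-cell RNA was measured in 576 sorted cells by the full-length protocol of Picelli and colleagues with Nextera XT libraries, per the labels' protocols. The authors deposited raw read counts per gene in 2 tables of whole numbers. GSNAP (2015-09-29), HTSeq (0.6.0) and build mm10 are named in the submitters' processing notes. Rows that name no gene and the 92 spike-ins stayed out of library sizes. Of all reads in the tables, 34.1% fell in genes, 2.06% in spike-ins, 6.86% in no feature, 4.28% were ambiguous and 52.7% not aligned. The row for alignments that are not unique was 0 throughout, and the strand setting is not given in the sources used here. Depth ranged from 52163 to 1942773 gene reads per kept cell, so a gene of a few CPM is often missed in a cell. No 2 cells held identical counts.

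The 10 genes and the 8 lists were chosen with earlier results of these data known. Columns were mapped to samples by their names, and cells with at least 50000 gene reads were kept. Counts were summed per group and divided by the group's gene reads (CPM), with exact 95% Poisson intervals. Folds are log2 ratios of CPM + 1, with exact conditional binomial intervals for the ratio, and a gene counted as apart when the fold was at least 2 and the higher group had at least 10 CPM. Cells were thinned to 50000 reads for shares, which left out no further cell. Each group is 1 sample, since the labels name no animal, so no p-value was computed. Genes named from a list are among the 3 with the largest fold in a comparison, but not all 3 are named each time. Hsp90b1, Fos, Jun, Egr1 and Mki67 were named apart from this rule. For Hspa1a plus Hspa1b, Hspa8, Hsp90ab1 and Hspa5 the 5 genes most like them are named. Exon lengths and transcripts came from GENCODE M21 and promoters from RefSeq (GRCm38.p6). Stretches of 50 bases measured shared sequence, and the read length is not given in the sources used here. Alternatives used TMM factors (edgeR 4.0.16), spike-in reads, other cell filters, other constants before the log and counts with copies added. The fold calculation was tested on simulated counts. Python 3.11.15, numpy 2.4.6, pandas 2.3.3, scipy 1.17.1 and matplotlib 3.10.9 were used. Hspa14 of the cytosolic list was not used here.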

Additional observations from a re-analysis of the deposited data

Results flagged for a closer look

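On the CPM scale, the LPS fold of Hsf1 had opposite signs in different p27 classes. The counting intervals exclude a ratio of 1 in each class, but they cover the counting of reads only. The log2 fold of Hsf1 in p27 high cells minus that in p27 negative cells was 0.61, from 0.10 in the high class and -0.51 in the negative class. The same difference for p27 low minus negative cells was 0.66, from 0.15 in p27 low cells. Hspa8 also had opposite signs between classes on this scale. Its LPS fold in p27 high minus p27 low cells was -0.47, and that in p27 low minus p27 negative cells was 0.29. Per spike-in read, Hsf1 had log2 folds of 1.53, 1.41 and 1.29 and Hspa8 of 1.19, 1.49 and 1.73 in p27 high, low and negative cells, all of 1 sign. None of these differences between classes was tested, since each group is 1 sample.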

How the results depend on the processing

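The count of genes at least 2-fold apart was 0 in each of the 9 comparisons, and 15 other values of it differed. Per spike-in read it was 7, 6 and 6 in the LPS comparisons of the high, low and negative classes, 3 for p27 high against negative and 2 for low against negative in control, and 4 for both p27 high and p27 low against negative after LPS. The all-gene median log2 fold then moved to 1.35, 1.13 and 1.67 in the LPS comparisons and to -0.41, -0.07 and -0.32 for high against negative, high against low and low against negative in control. In the LPS comparisons these medians were themselves past 2-fold. The share of all genes past 2-fold is not given for any of these other settings, so the counts do not set the heat shock genes apart. With no minimum level the count was 1, Hspa1a, in the LPS comparisons of p27 high and negative cells and in p27 high against low and low against negative in control. It was 1, Hsph1, for LPS in p27 low cells with the mean of per-cell CPM and without the top cell of each gene, for LPS in p27 negative cells with only the cells numbered 33 to 96, and for p27 high against negative in control with TMM factors. TMM moved the all-gene medians of the LPS comparisons to 0.03, -0.01 and -0.01. The cause of these shifts was not tested. Adding pseudogenes that share sequence, chosen after seeing the data, gave 0 in each comparison, as did the other settings. No paired analysis was possible because cells share only numbers across groups and the results come from no test. Depth limits Hspa1a, Hspa1b and Hsph1 most, through cells with few reads or none.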

Other observations

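Reads also lay in pseudogenes that copy the HSP90 genes. From cell to cell, the levels of Gm6368 and Gm13498, which share 50-base stretches with Hsp90ab1, were the most like it, with mean within-group Spearman correlations of 0.75 and 0.63 over the 6 groups. The 2 pseudogenes of Hsp90ab1 in the table together had 136, 117 and 133 CPM in LPS p27 high, low and negative cells, against 133, 102 and 124 CPM in the control classes. After these, Mif at 0.29, Gm12346 at 0.28 and Dctpp1 at 0.27 were most like Hsp90ab1. For Hspa8, 9 counted pseudogenes, of 11 that share at least 20 such stretches, together held 3.45 to 5.33 CPM in a group. That sum left out Gm26825, a long noncoding RNA entry that shares 1617 stretches. The 1 Hspe1 pseudogene chosen in this way held at most 0.367 CPM, and 5 entries named as copies of Hspe1 held 56 reads over all groups. AC117239.2, listed as protein-coding, shares 255 stretches with Hspe1 and was left out. With pseudogenes added, Hsp90aa1 had 448, 458 and 571 CPM in LPS p27 high, low and negative cells, against 406, 436 and 565 CPM in control. Where the reads of these pseudogenes came from was not tested.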
